A study of Mus musculus with 8 samples.

Results

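The enzymes and carriers that bring pyruvate into mitochondria and turn the citric acid cycle were followed in C2C12 cells after Pvt1 down-regulation. The group comprised 33 genes listed by symbol, and every array spot carrying one of those symbols as its gene name was taken, apart from control spots. All 33 genes had a spot, out of 27248 gene names on the array, and they were read by 73 of 56605 probes. Of those probes 62 could be tested, all of them with a value on each of the 8 arrays, and 11 were too dim to be tested. For 13 genes a single probe was tested and for 20 genes more than 1.

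C2C12 is a mouse myoblast line, used here at passage 10 while proliferating. In the silenced group (4 cultures) cells had been transfected, by means of Lipofectamine 2000, with the LNA GapmeRs Pvt1_1 and Pvt1_3, antisense oligonucleotides that lead to cleavage of the RNA they pair with. In the control group (4 cultures) the same reagent carried negative control GapmeRs. The labels call the 4 cultures of a group biological replicates, they describe no genetic change in either group, and they do not say whether a culture received both GapmeRs. The GapmeRs that define the silenced group read, 5′ to 3′ and entirely in capitals because the whole oligonucleotide was directed at Pvt1, its pairing not having been checked here:
Pvt1_1: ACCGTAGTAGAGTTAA
Pvt1_3: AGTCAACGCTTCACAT

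Pyruvate made by glycolysis crosses the inner mitochondrial membrane through a carrier of paired subunits. It is then either oxidised to acetyl-CoA by the pyruvate dehydrogenase complex or carboxylated to oxaloacetate. The citric acid cycle condenses acetyl-CoA with oxaloacetate into citrate and, through successive oxidations, hands electrons to NADH and to succinate dehydrogenase, which is also a complex of the respiratory chain. Malic enzymes, aminotransferases, glutamate dehydrogenase and the mitochondrial PEP carboxykinase let carbon leave or enter the cycle. In muscle these steps carry most of the oxidative energy supply.

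Values are log2 signals after quantile normalization, a change is the silenced mean minus the control mean, and a gene is represented by its brightest probe unless another is named. A gene or probe is called when its limma p-value, adjusted over 28649 tested probes by the Benjamini-Hochberg method, lies under 0.05. Levels of different probes are not compared, because probes differ in how brightly they bind.

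The target and the arrays were examined first. The brightest Pvt1 probe read 9.65, 9.79, 10.31 and 9.71 on control arrays 1 to 4 and 7.09, 6.69, 7.85 and 6.39 on silenced arrays 1 to 4, a change of -2.86 (SE 0.32, limma adjusted p 0.000682). Silenced array 4 was the dimmest, with 51.6% of spots positive and significant against 58.8% to 62.5% on the other 7 arrays. Of 8 myoblast markers 7 were well above background on all arrays, Myf5 being the exception on every one of them, and 3 of the 8 were called lower in silenced cells (Myod1, Des and Cdh15). The summed signal of that list was 168873 to 186280 in controls and 122348 to 150315 in silenced cells. Sums of lists are on a linear scale and are not sums of the normalized values given for single genes. The summed signal of 25 liver genes was 1253 to 2010 in controls and 6429 to 7601 in silenced cells. Of the liver genes, 5 (Alb, Mup1, Serpina1a, Trf and Fgb) were well above background on all silenced arrays and on no control array, and Apoa1, Apob, Cps1, Cyp3a11, G6pc, Hpd and Tat were not well above it on any array. The 5 immune genes summed to 2336 to 2423 in controls and 5335 to 8202 in silenced cells, with Cd68 and Cd14 called higher and Lyz2 not well above background on any array. Differentiated muscle genes summed to 3182 to 4433 in controls and 1469 to 1949 in silenced cells. Acta1, which contributed most to that sum, and Myh1 were called lower. Since Myh1 was well above background on no silenced array, it is given as at least 2.74-fold lower. Myog, Myh3, Tnnt3 and Ryr1 were not called. No array showed the endothelial genes Pecam1, Cdh5 and Kdr well above background, nor the adipocyte gene Adipoq, whose list of 3 summed to 133 to 233 in controls and 269 to 526 in silenced cells. The myoblast, differentiated muscle, liver, immune and adipocyte sums did not overlap between the groups, and their part in the results on the pathway was not tested. In such pooled RNA, fewer cells of a type and less RNA per cell cannot be told apart.

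**Figure D1:**
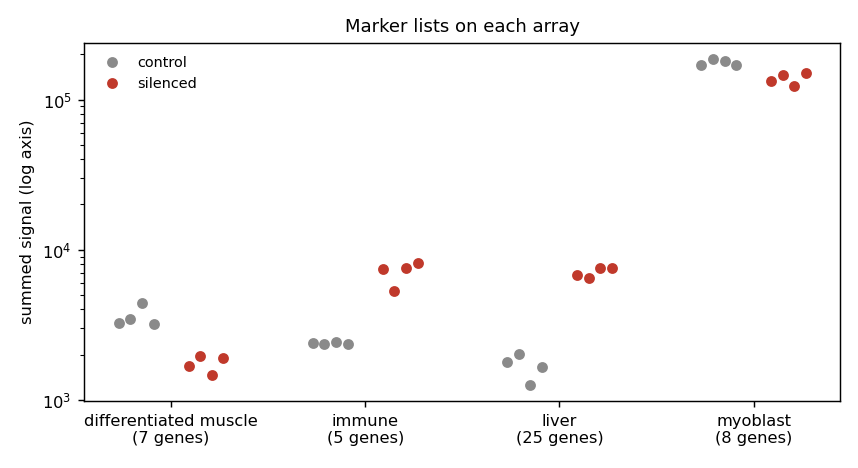
Summed signal of the marker genes of 4 lists (vertical axis, linear signal on a log scale, not summed from the normalized values given for single genes) on each control array (grey) and silenced array (red). The liver and immune sums are higher on every silenced array than on any control array, and the differentiated muscle and myoblast sums are lower.

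Among the 33 genes, 4 were called. Pck2, the mitochondrial PEP carboxykinase, fell to 28.2% of the control signal, Idh3b, a subunit of NAD-dependent isocitrate dehydrogenase, to 55.8%, and Suclg2, the GTP-forming subunit of succinyl-CoA synthetase, to 57.4%. Pdhb, the beta subunit of the E1 enzyme of pyruvate dehydrogenase, rose to 161%. The other 29 were not called, and 10 of the 33 had an unadjusted limma p under 0.05, against 32.7% of all genes. The members called higher made up 3.03%, against 6.59% of all 15444 genes tested, and those called lower 9.09%, against 13.2%, so under this normalization neither share exceeded that of all genes. This depended on the processing: 36.4% of members with the authors' table were called higher, against 22.6% of all genes, and without masking of dim spots 33.3%, against 21.9%. The change was above 0 for 20 members and below 0 for 13, with a median of 0.08 against -0.05 over all genes. The 4 silenced arrays all lay above the 4 control arrays in 4 members (12.1%, against 7.65% of all genes) and all below them in 8 (24.2%, against 17.8%). These shares describe the members and were not tested as a set. Leaving out 1 array each time gave 1 member called lower (3.03%) without control array 2 or 4, where 7.61% and 7.4% of all genes were called lower, and 4 (12.1%) without control array 3, where 14.4% were. It gave 0 called higher without any one of control arrays 1, 2 and 4 or silenced arrays 1, 2 and 3, where 3.29% to 4.38% of all genes were called higher.

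**Figure D2:**
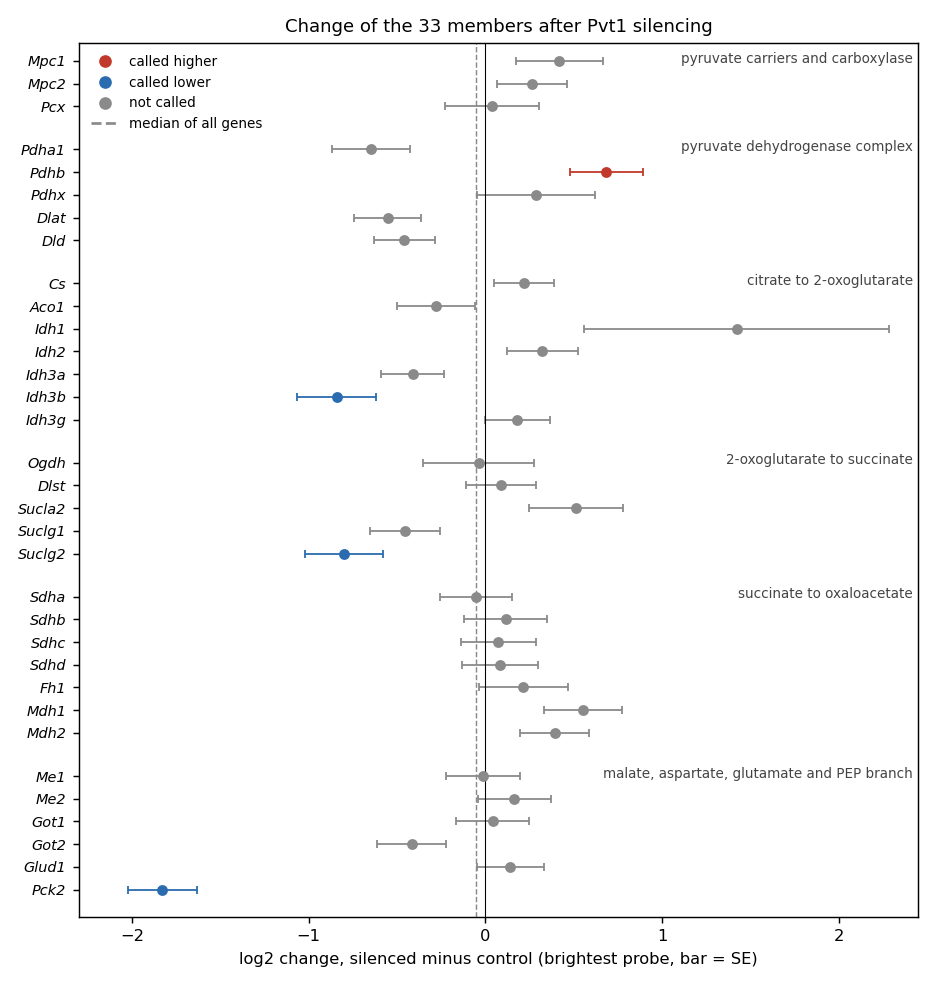
Change of each of the 33 members (horizontal axis, log2, silenced minus control, brightest probe, with the SE as bar), grouped by step of the pathway. Pck2 at -1.83, Idh3b at -0.84 and Suclg2 at -0.80 (blue) and Pdhb at 0.68 (red) are the members called, the grey members are not, and the dashed line is the median of all genes at -0.05.

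The signal of the members also depended on the array. As the median deviation of the 33 members from their own means over all arrays, control arrays 1 to 4 stood at -0.19, 0.01, 0.05 and 0.02. Silenced arrays 1 to 4 stood at 0.11, 0.08, 0.31 and -0.31. Silenced array 3 was thus the highest and silenced array 4 the lowest, as they were over all genes (0.24 and -0.53). Without silenced array 4 the median change of the members was 0.21, with 4 members called higher (12.1%, against 17.1% of all genes) and 3 lower (9.09%, against 13.0%), and the median over all genes was 0.12.

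**Figure D3:**
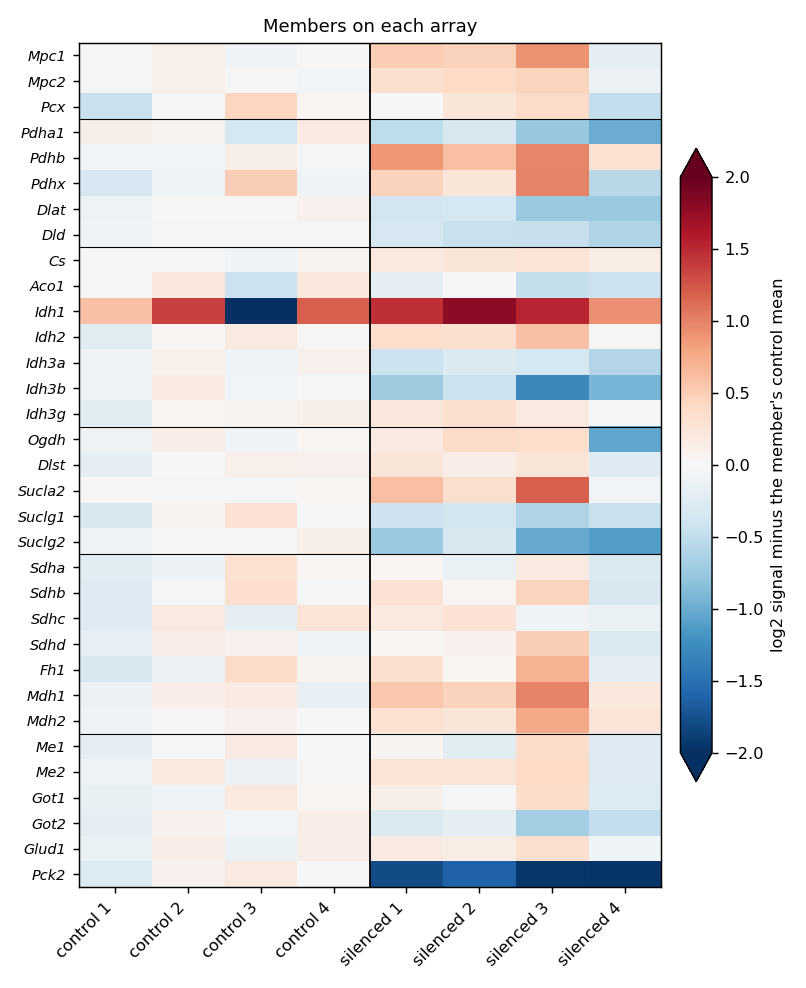
Log2 signal of each member on each array minus the member's control mean (colour, from -2 in blue to 2 in red, values beyond are shown at the end of the scale). Pck2 is blue on all 4 silenced arrays, Idh1 is dark blue on control array 3 alone, and many members are paler or bluer on silenced array 4 than on silenced arrays 1 to 3.

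The probes that were called in these 4 members are shown by their first 30 bases, 5′ to 3′ along the transcript and taken from the array design, since they fix which piece of each RNA was read. They stand in lower case as no part of them is singled out, and each is named by the base at which the probe begins on its transcript:
Pck2 base 2010: atccccaaggacttctgggagcaggaggtt
Pck2 base 2867: ctgtattctagacacattgtcagagtacca
Idh3b base 802: gtgcagaacccttaccagtttgatgtgctc
Suclg2 base 318: taaaagcccagatcttagctggaggaagag
Suclg2 base 854: aactttgatgacaatgctgagttccgacaa
Suclg2 base 1644: tgtgcatacatacagtatttaaagccagat
Pdhb base 1382: gaatgcccccacagaaggtaacttatatgt

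The 3 genes that handle pyruvate on entry were not called. Mpc1 changed by 0.42 (SE 0.24, limma adjusted p 0.249) and Mpc2 by 0.26 (SE 0.20, limma adjusted p 0.370), and these encode the subunits of the mitochondrial pyruvate carrier. Mpc1 read 13.35, 13.30 and 13.75 on silenced arrays 1 to 3, all above its control values of 12.78 to 12.94, and 12.66 on silenced array 4, below them. Pcx, the pyruvate carboxylase that refills oxaloacetate, changed by 0.04 (SE 0.27, limma adjusted p 0.942).

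By their brightest probes, members of the pyruvate dehydrogenase complex changed in different directions, but Pdhb alone was called. Pdhb read 12.15, 12.15, 12.32 and 12.17 on the control arrays and 13.06, 12.79, 13.18 and 12.49 on the silenced arrays. All 4 silenced values were above all control values, and the change was 0.68 (SE 0.21, limma adjusted p 0.0398). That probe lies on chromosome 14 from 8998548 to 8998607 (build mm9). The other Pdhb probes, which were assigned to other transcripts, were not called: at base 1543 the arrays read 6.95, 7.10, 7.61 and 7.26 in controls and 7.07, 6.89, 6.67 and 5.83 in silenced cells (change -0.61, limma adjusted p 0.163), and the groups overlapped. At base 2012 the values were 6.98, 7.31, 7.78 and 7.11 in controls and 7.85, 7.80, 8.29 and 6.77 in silenced cells (change 0.38, limma adjusted p 0.449), again with overlap. The rise of Pdhb thus rests on 1 probe. Within the slide row that held 3 control arrays and 1 silenced array it was 0.85, and within the row that held 1 and 3 it was 0.65. Each change within a row thus rests on a single array of 1 group, and the groups were not balanced over the rows. It was no longer called with the slide row as a block (adjusted p 0.108) or without any one of control arrays 1, 2 and 4 or silenced arrays 1, 2 and 3, where the limma adjusted p ran from 0.0643 to 0.110, nor with the mean of all its probes or its most 3′ probe.

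The partner of Pdhb in the E1 enzyme, Pdha1, changed in the opposite direction, by -0.65 (SE 0.22, limma adjusted p 0.0618), without being called. Dlat, the E2 transacetylase, changed by -0.55 (limma adjusted p 0.0619) and Dld, the E3 dihydrolipoyl dehydrogenase that the 2-oxoglutarate complex also uses, by -0.46 (limma adjusted p 0.0843). For both Dlat and Dld every silenced value was below every control value. Dlat read 11.33 to 11.52 in controls and 10.69 to 11.08 in silenced cells, and Dld 12.76 to 12.86 and 12.24 to 12.50. A dimmer Dlat probe, at base 3760, overlapped between the groups, from 9.08 to 10.05 and from 8.89 to 10.16.

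Pdhx, the protein that tethers the E3 enzyme to the complex, gave discordant probes. Its brighter probe, at base 2348, read 9.01, 9.24, 9.83 and 9.27 in controls and 9.80, 9.58, 10.33 and 8.78 in silenced cells, with overlap and a change of 0.29 (SE 0.33, limma adjusted p 0.582). Its probe at base 602 of another transcript read 7.92, 8.09, 8.29 and 8.19 in controls and 6.39, 6.32, 6.31 and 5.24 in silenced cells. There the groups did not overlap, and the signal fell to 24.1% of control (change -2.05, SE 0.28, limma adjusted p 0.00139). The median change of the 5 genes of the complex was -0.46, with 1 called higher and none lower.

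**Figure D4:**
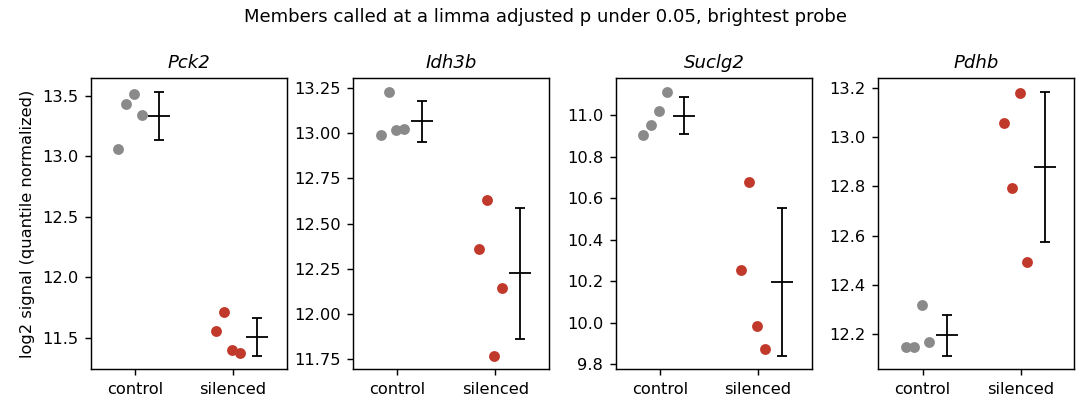
Log2 signal (vertical axes, each with its own range, none starting at 0) of the 4 members called, 1 point per array in control (grey) and silenced (red) cultures, with the group mean and SD in black. The groups do not overlap for any of the 4, and the SD of the silenced arrays is wider than that of the control arrays for Idh3b, Suclg2 and Pdhb.

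From citrate to 2-oxoglutarate, 1 of 7 genes was called. Idh3b read 12.99, 13.23, 13.02 and 13.02 on the control arrays and 12.36, 12.63, 11.77 and 12.14 on the silenced arrays, so the groups were apart, and it fell by 0.84 (SE 0.22, limma adjusted p 0.0240). Its probe lies on chromosome 2 from 130106776 to 130106835 (mm9) and was its only one. Within the slide rows Idh3b changed by -0.72 and -0.84. It was not called with the slide row as a block (limma adjusted p 0.115), nor without control array 2 (0.0780) or control array 4 (0.0652), nor with the authors' table (0.0614) or without masking of dim spots (0.0786). Idh3a, the catalytic subunit of the same isocitrate dehydrogenase, changed by -0.41 (limma adjusted p 0.128), with silenced values of 12.78 to 13.08 all below control values of 13.25 to 13.46.

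The third subunit, Idh3g, depended on the probe. At base 1231 it read 13.74, 13.99, 14.01 and 14.07 in controls and 14.17, 14.28, 14.14 and 13.95 in silenced cells (change 0.18, limma adjusted p 0.521). At base 1063 of the same transcript it read 13.51, 13.84, 13.88 and 13.77 in controls and 12.80, 13.03, 12.50 and 12.88 in silenced cells. That is a change of -0.95 (SE 0.20, limma adjusted p 0.00892) without overlap, although these probes begin only 168 bases apart. A dimmer Idh3g probe, at base 560 of another transcript, read 5.49, 6.02, 6.68 and 5.93 in controls and 5.39, 4.98, 5.43 and 4.53 in silenced cells, and its limma adjusted p was 0.0490. It was well above background on 1 control array and on no silenced array, so it is given as at least 1.88-fold lower in silenced cells.

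Idh2, the NADP-dependent mitochondrial isocitrate dehydrogenase, behaved likewise. Its probe at base 1639 read 14.24, 14.52, 14.67 and 14.50 in controls and 14.83, 14.81, 15.07 and 14.51 in silenced cells (change 0.32, limma adjusted p 0.284). Its probe at base 892 read 12.26, 12.44, 11.91 and 12.63 in controls and 11.33, 11.51, 11.04 and 11.16 in silenced cells, a fall to 48.3% of control (change -1.05, SE 0.22, limma adjusted p 0.00905) with no overlap.

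Idh1, the cytosolic NADP-dependent enzyme, had the highest computed change of all members, 1.42, with the widest error (SE 0.86, limma adjusted p 0.268). It rested on control array 3, where Idh1 read 4.24 and was not well above background, while the other controls read 7.99, 8.75 and 8.59 and the silenced arrays 8.30 to 9.19. Without that array the change was 0.37 (limma adjusted p 0.371). Cs, the citrate synthase that opens the cycle, changed by 0.22 (SE 0.17, limma adjusted p 0.390), and although small this difference separated the groups, with 15.74 to 15.88 in controls and 15.95 to 16.08 in silenced cells. The other Cs probe, at base 1435 of the same transcript, separated them in the opposite direction, with 14.42 to 14.57 in controls and 13.85 to 14.30 in silenced cells (change -0.36, limma adjusted p 0.190). Aco1, a cytosolic aconitase that also acts as an iron-responsive RNA-binding protein, changed by -0.28 (limma adjusted p 0.398).

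From 2-oxoglutarate to succinate, Suclg2 was the gene called. It read 10.90, 10.95, 11.02 and 11.11 on the control arrays and 10.25, 10.68, 9.98 and 9.88 on the silenced arrays, every silenced value being the lower, with a change of -0.80 (SE 0.22, limma adjusted p 0.0275, chromosome 6, 95424712 to 95424771, mm9). Its other tested probes were called lower too. The probe at base 854 read 8.71, 9.23, 8.38 and 9.18 in controls and 7.58, 7.93, 7.33 and 6.85 in silenced cells (change -1.45, SE 0.29, limma adjusted p 0.00731). The probe at base 318 read 5.81, 6.77, 5.46 and 6.41 in controls and 4.08, 4.14, 4.72 and 4.14 in silenced cells, and since it was well above background on 2 control arrays and no silenced array, it was at least 2.51-fold lower in silenced cells (limma adjusted p 0.00330). All 3 tested probes of Suclg2 thus gave the same call. Within the slide rows the brightest changed by -0.70 and -0.93. Its call was lost when the slide row was a block (limma adjusted p 0.1004) and without any one of control arrays 1, 2 and 4 or silenced arrays 1 and 3, where the limma adjusted p ran from 0.0513 to 0.0866, as well as without masking of dim spots (0.0592).

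The other subunits of succinyl-CoA synthetase were not called. Sucla2, the ATP-forming counterpart of Suclg2, changed by 0.51 (SE 0.27, limma adjusted p 0.195) and was above all controls on silenced arrays 1, 2 and 3 (10.38, 10.10 and 10.98 against 9.76 to 9.81) but not on silenced array 4 (9.72). Suclg1, the alpha subunit that pairs with either, changed by -0.46 (SE 0.20, limma adjusted p 0.128), with silenced values of 13.20 to 13.45 below control values of 13.49 to 14.10.

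Ogdh and Dlst, the E1 and E2 enzymes of the 2-oxoglutarate dehydrogenase complex, were not called by their brightest probes. Ogdh read 13.87, 14.09, 13.88 and 14.00 in controls and 14.13, 14.34, 14.31 and 12.92 in silenced cells, so that its change of -0.04 (SE 0.31, limma adjusted p 0.949) joined 3 arrays above every control and 1 far below. Without silenced array 4 it was 0.29 (limma adjusted p 0.179). A second Ogdh probe, which begins 72 bases nearer the 5′ end, read 13.67, 13.94, 13.78 and 13.82 in controls and 13.12, 13.32, 12.86 and 13.17 in silenced cells, and it was called lower without overlap (change -0.69, SE 0.19, limma adjusted p 0.0269).

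Dlst had 4 tested probes on 4 different transcripts. The brightest read 14.25, 14.44, 14.54 and 14.53 in controls and 14.67, 14.58, 14.69 and 14.17 in silenced cells (change 0.09, limma adjusted p 0.789). The probe at base 2837 of its own transcript (chromosome 12, 86454644 to 86454703, mm9) read 9.48, 9.62, 10.26 and 9.66 in controls and 8.55, 8.74, 8.69 and 7.77 in silenced cells, and was called lower without overlap (change -1.32, SE 0.28, limma adjusted p 0.00911). The remaining probes changed by -0.71 (limma adjusted p 0.0686) and -0.09 (limma adjusted p 0.899).

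From succinate to oxaloacetate none of the 7 genes was called by its brightest probe, and their median change was 0.11. By these probes the subunits of succinate dehydrogenase lay close to 0, with Sdha at -0.05 (limma adjusted p 0.890), Sdhb at 0.11 (0.767), Sdhc at 0.07 (0.841) and Sdhd at 0.08 (0.822). Another Sdhb probe, at base 310 of the same transcript, changed by -0.32 (limma adjusted p 0.263). It was not called, although every silenced value was below every control value. Sdha, the flavoprotein that binds succinate, read 13.13, 13.24, 13.65 and 13.38 in controls and 13.39, 13.21, 13.52 and 13.06 in silenced cells at base 2192. At base 1512 of the same transcript it read 11.81, 12.08, 11.44 and 11.97 in controls and 10.76, 11.09, 10.39 and 10.69 in silenced cells. The upstream probe was called lower without overlap (change -1.09, SE 0.23, limma adjusted p 0.00874), whereas the downstream one overlapped between the groups.

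Fh1, the fumarase, changed by 0.21 (SE 0.25, limma adjusted p 0.587). By their brightest probes, the malate dehydrogenases were both higher on all silenced arrays than on any control array, without being called. Mdh1, the cytosolic enzyme, read 12.90 to 13.23 in controls and 13.28 to 14.06 in silenced cells (change 0.55, SE 0.22, limma adjusted p 0.101). Another Mdh1 probe, at base 754 of the same transcript, changed by -0.18 (limma adjusted p 0.558), and there the groups overlapped. Mdh2, the mitochondrial enzyme, read 16.01 to 16.19 and 16.36 to 16.88 (change 0.39, SE 0.20, limma adjusted p 0.177).

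In the branch of malate, aspartate, glutamate and PEP, Pck2 was the gene called. The control arrays read 13.06, 13.43, 13.52 and 13.34 and the silenced arrays 11.55, 11.71, 11.40 and 11.37. The gap between the lowest control and the highest silenced value was wide against the spread within either group (SD 0.20 and 0.16, n = 4 each), and the change was -1.83 (SE 0.19, limma adjusted p 0.000588). This probe lies on chromosome 14 from 56167465 to 56167524 (mm9). A second probe of the same transcript, at base 2867, read 7.41, 7.84, 8.21 and 8.02 in controls and 6.90, 6.89, 7.01 and 5.97 in silenced cells, and it was called lower as well (change -1.18, SE 0.29, limma adjusted p 0.0166). Within the slide row that held 3 control arrays and 1 silenced array Pck2 changed by -1.78, and within the row that held 1 and 3 by -1.85. It was the member called under all 22 alternatives, with changes from -1.94 to -1.18.

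The other genes of the branch were not called by their brightest probes. Me1, the cytosolic malic enzyme, changed by -0.02 (limma adjusted p 0.968) and Me2, a mitochondrial one, by 0.16 (limma adjusted p 0.617). Got1 and Got2, the cytosolic and mitochondrial aspartate aminotransferases, changed by 0.04 (limma adjusted p 0.910) and -0.42 (limma adjusted p 0.157), and Got2 lay lower on all silenced arrays (13.05 to 13.55) than on any control array (13.56 to 13.88). Glud1, the glutamate dehydrogenase, read 13.88, 14.14, 13.88 and 14.14 in controls and 14.20, 14.16, 14.33 and 13.93 in silenced cells at base 2857 (change 0.14, limma adjusted p 0.638). Its probe at base 1450 read 11.57, 11.84, 11.51 and 11.88 in controls and 10.45, 11.03, 9.93 and 10.18 in silenced cells, a fall to 40.5% of control without overlap (change -1.30, SE 0.26, limma adjusted p 0.00719).

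Counted by probe, 14 of the 62 member probes (22.6%) were called lower, against 18.4% of all 28649 probes, and 1 (1.61%) was called higher, against 4.79%. In 10 of 33 members at least 1 probe was called lower, against 24.9% of all genes, and in 8 of the 20 with more than 1 tested probe the probes differed in call, against 43.6% of such genes (Dlst, Glud1, Idh2, Idh3g, Ogdh, Pdhb, Pdhx and Sdha). Apart from Pdhb, in each of these 8 the brightest probe was not called and another was called lower. The mean of all tested probes of a gene gave a median change of -0.28 for the members, in place of 0.08, with 0 called higher and 3 (9.09%) lower. Over all genes the median was then -0.17, with 4.87% called higher and 15.1% lower.

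The discordant probes were followed along the transcript, a comparison chosen after the probe values had been seen. For 14 members at least 2 tested probes were assigned to one transcript, and the probe nearest its 5′ end was set against the probe nearest its 3′ end, from 72 to 1767 bases apart. In 14 of 14 the 5′ probe had the lower change, with a median change of -0.82 for the 5′ probes and 0.08 for the 3′ probes. The 5′ probe was called lower in 7 of the 14, against 36.3% of all genes with such a pair, and the 3′ probe in 2, against 13%. When the 5′ minus 3′ difference was itself fitted with limma and adjusted over all genes with such a pair, 7 members were called: Glud1 (-1.44, SE 0.25, adjusted p 0.00264), Idh2 (-1.37, SE 0.26), Idh3g (-1.13, SE 0.17), Sdha (-1.04, SE 0.30), Mdh1 (-0.73, SE 0.27), Cs (-0.58, SE 0.15) and Suclg2. No size is given for Suclg2, because its 5′ probe, at base 318, was well above background on no silenced array; its computed value enters the medians and counts. For Got1 (-1.04), Dlat (-0.55), Ogdh (-0.65), Pck2 (-0.65), Mpc1 (-0.47), Sdhb (-0.43) and Me1 (-0.39) it was not called. The count of 7 rested on the arrays, being 12 without control array 3, 4 without control array 1, 2 or 4 and 3 when the slide row was a block. Of all pairs 52.4% were called lower without control array 3, 33.5%, 31.0% and 31.2% without control arrays 1, 2 and 4, and 30.2% with the slide row as a block, so the shares of members and of all pairs moved in the same direction.

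The same held for the array as a whole. Over 4068 genes with a pair, the difference was negative in 80.3% and called lower in 41.4%, with a median of -0.60, and on 39.4% of pairs all silenced arrays lay below all control arrays (4 of the 14 members: Cs, Glud1, Idh2 and Idh3g). Over the 2783 pairs as far apart as the members' the median was -0.70 and 86.2% were negative, against a median of -0.69 in the members. The members' values are thus close to those of all genes.

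**Figure D5:**
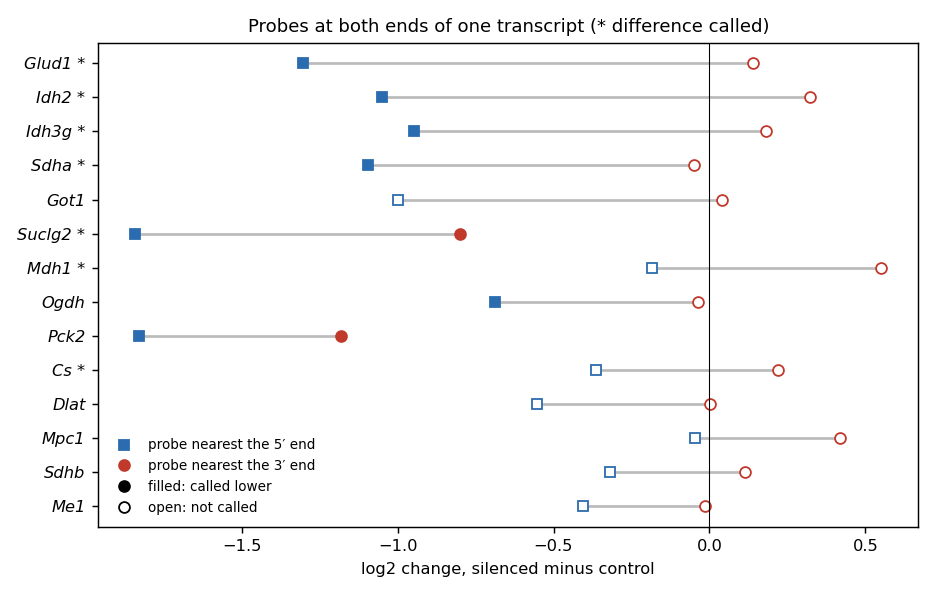
Change (horizontal axis, log2, silenced minus control) of the probe nearest the 5′ end (blue squares) and of the probe nearest the 3′ end (red circles) of the same transcript in 14 members, filled where the probe was called lower (the 5′ probe of Suclg2 is at its computed value, though well above background on no silenced array), with an asterisk where the difference of both was called. In every row the blue square lies to the left of the red circle, and the difference runs from -0.39 in Me1 to -1.44 in Glud1.

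A polyadenylation signal in the probe marks a place near the 3′ end of a transcript. The motifs AATAAA and ATTAAA were searched on the strand of the probe. Of the 62 member probes 5 (8.06%) held one, against 14.9% of all tested probes, and of these 5 none was called, where 10.2% of all probes with a motif were called higher and 6.64% lower. Their median change was 0.11, against -0.28 for the other member probes, and over all tested probes the medians were 0.17 and -0.26. The stretches below, 5′ to 3′ with each match to either motif in capitals, come from the brightest probes of 3 members that were not called (Fh1 at 0.21, Pcx at 0.04 and Pdhx at 0.29), and for Pdhx the probe at base 602, which lacks the motif, is the one that fell:
Fh1: caaagtgacttcAATAAAtttatATTAAAa
Pcx: ggaaatttgctcAATAAAagtggccttccc
Pdhx: ggaatctaatgaAATAAAttctcttagcat

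Genes that regulate or adjoin the pathway were taken from a list of 40, of which 36 could be tested. Of these 4 were called higher (11.1%, against 6.59% of all genes) and 3 lower (8.33%, against 13.2%), with a median change of 0.07. Without silenced array 4 the count called higher was 13, where 17.1% of all genes were called higher, and without control array 4 it was 2, where 3.42% were. The genes called higher were Gpt, an alanine aminotransferase that makes pyruvate (1.28, SE 0.23, limma adjusted p 0.00435), Slc25a11, the 2-oxoglutarate and malate carrier (1.06, SE 0.24, limma adjusted p 0.0114), Sirt3, a mitochondrial deacetylase (1.04, SE 0.31, limma adjusted p 0.0370), and Pdk1, a kinase that inhibits pyruvate dehydrogenase (1.02, SE 0.25, limma adjusted p 0.0165). Pdk1 read 10.19, 10.52, 10.80 and 10.47 in controls and 11.62, 11.36, 12.02 and 11.08 in silenced cells. Other probes of these genes did not share the calls. They changed by 0.18 for Gpt and by 0.59 for Sirt3, neither called, by 0.58 and -0.29 for Pdk1, neither called and the latter with 1 control array missing, while a further Pdk1 probe was well above background on no array, and by -0.91 for Slc25a11, which was called lower (limma adjusted p 0.0105).

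The genes called lower all encode mitochondrial carriers. Slc25a10, the dicarboxylate carrier, read 8.43, 8.94, 8.10 and 8.91 in controls and 6.67, 7.11, 6.31 and 5.67 in silenced cells (change -2.15, SE 0.33, limma adjusted p 0.00237). Slc25a22, a glutamate carrier, changed by -2.08 (SE 0.31, limma adjusted p 0.00210) and Slc25a1, the citrate carrier, by -0.66 (SE 0.20, limma adjusted p 0.0431). Second probes of Slc25a1 and Slc25a22 were called lower too, the latter with 1 silenced array missing. For Slc25a10 no other probe was tested.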

How the data were processed

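Each of 8 one-colour Agilent arrays was hybridised with Cy3-labelled RNA from 1 culture, and GEO's labels gave the groups. The deposited scanner files hold the intensity of each spot on a linear scale together with flags of 0 or 1 (other units), and per the file headers they came from Feature Extraction 12.0.0.7, while the submitters' notes name 10.7.3.1. The authors also deposited a table of normalized intensity values, used as an alternative.

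Following the study's methods, spots not positive and significant were masked, these deposited intensities were quantile normalized, and spots of a probe were averaged. Putting the intensities on a log2 scale before normalization was a choice made here. Leaving out control and outlier-flagged spots, requiring 3 values of 4 in each group, and limma 3.58.1 (R 4.3.3, lmFit and eBayes, group as the only term, Benjamini-Hochberg over 28649 probes, threshold 0.05) were choices made here. A gene was its brightest probe over 8 arrays (15444 genes). A probe well above background on no array of a group is given as a bound, the bright group's mean against, per dim array, the higher of its own value and the lowest value of any probe well above background.

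The members and lists were chosen with earlier results of these data known. All 33 members are named, with array values for those called or with probes that differ in call, as are related genes called, Pvt1 and markers, which come from 6 lists (myoblast, differentiated muscle, liver, immune, endothelial, adipocyte). The comparison of 5′ with 3′ probes was added after seeing the data. Probe positions are those of the array design on mm9, and exon and UTR positions were not analysed here. Alternatives covered normalization, background correction, the deposited table, dim spots, missing values, blocks, the variance prior, a t-test with unequal variance, the choice of probe and each array left out. A few items are not reported here. The fit was tested on simulated data. The 4 arrays per group limit the precision of every value, and figures were drawn with matplotlib 3.10.9.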

Additional observations from a re-analysis of the deposited data

Results flagged for a closer look

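In 6 of 66 groups of 4 arrays 1 array of a member's brightest probe lay far from the other 3, by a rule that chance meets in about 1 of 20 groups. Idh1 read 4.24 on control array 3, against 7.99 to 8.75 on the other control arrays, and Pdhb read 12.32 there, against 12.15 to 12.17. Ogdh read 12.92 on silenced array 4, against 14.13 to 14.34. Mdh2 read 16.88 on silenced array 3, against 16.36 to 16.42. Dld read 12.76 on control array 1, against 12.86 on each of the others, and Idh3b read 13.23 on control array 2, against 12.99 to 13.02. Control array 3 and silenced array 4, which hold 3 of the 6, also had the lowest correlation with their group and the fewest positive spots, respectively.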

How the results depend on the processing

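The median change of all genes was -0.05 with quantile normalization, 0.15 with cyclic loess or the authors' table and 0.16 without masking, and 66.7% of called genes were lower, against 35.7%, 33.7% and 32.1%, and 43.3% without silenced replicate 4. Members called higher (1) and lower (3) became 2 higher with the 75th percentile, 8 higher with cyclic loess, 12 with the authors' table, 11 and 1 without masking, 2 and 7 with normexp, 3 and 5 with a robust trended prior, 4 and 9 by a t-test with unequal variance before adjustment, and 0 and 1 with the slide row as a block. Over all genes 24.4% were called higher with cyclic loess, 22.6% with the authors' table, 21.9% without masking (10.3% lower) and 8% with normexp (14.6% lower), against 24.2%, 36.4%, 33.3% (3.03% lower) and 6.06% (21.2% lower) of the members. The shares of all genes called higher and lower were 10.3% and 17.4% with the 75th percentile, 9.21% and 14.9% with the robust prior, 11% and 18.6% by the unadjusted t-test and 2.53% and 5.52% with the slide row, against 6.06% and 12.1%, 9.09% and 15.2%, 12.1% and 27.3%, and 0% and 3.03% of the members. Only spots well above background gave 6 lower (18.2%, against 18.7% of all genes), while taking the most 3′ probe of each gene, or the mean of its probes, gave 0 higher, against 6.49% and 4.87% of all genes. The median change of the members (0.08) became 0.27 with cyclic loess, 0.25 with the authors' table and 0.29 without masking. It became 0.18 with the 75th percentile, 0.02 with only spots well above background and -0.28 with the mean of all probes. Leaving out 1 array each time gave 0 to 4 members higher and 1 to 4 lower, 0 to 4 member probes higher and 9 to 16 lower, 2 to 13 related genes higher, and 4 to 12 member pairs called, while 3.29% to 17.1% of all genes and at most 13.0% of all probes were called higher, 11% to 21.1% of all probes lower and 31.0% to 52.4% of all pairs. Member probes called higher (1) became 2 with the 75th percentile or normexp, 10 with cyclic loess, 13 with the authors' table, 12 without masking, 3 with the robust prior, 4 by the unadjusted t-test and 0 with the slide row, where 8 were called lower (23 by the unadjusted t-test). Of all probes 18.9% were called higher with cyclic loess, 9.86% with the authors' table and 8.82% without masking (45741 and 56600 probes tested in the latter 2, in place of 28649), against 16.1%, 21.0% and 19.4% of member probes, and 7.56%, 5.5%, 6.47% and 7.79% with the 75th percentile, normexp, the robust prior and the unadjusted t-test, against 3.23%, 3.23%, 4.84% and 6.45%. Lower were 8.98% with the slide row and 23.7% by the unadjusted t-test, against 12.9% and 37.1% of member probes. Related genes called higher (4) became 14 with cyclic loess, the authors' table or no masking, 6 with the 75th percentile, normexp, the robust prior, the replicate block or the unadjusted t-test, and 1 with the slide row, the adjusted t-test or the mean of probes. Related genes called lower (3) became 5 with spots well above background, the robust prior and the unadjusted t-test. Member pairs called (7) became 3 with the slide row, against 30.2% of all pairs.

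With the replicate block 0 members were called higher and 1 lower (3.03%), against 4.89% and 9.03% of all genes, and 0 member probes higher, against 3.57% of all probes. Arrays that shared a number had correlated deviations of -0.02, 0.15, 0.20 and 0.06, so the numbers were not taken to pair the cultures. In 2 of 4 control arrays the best match was the silenced array of the same number.

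Some members that were not called in the report changed sign, and the cause was not tested. Ogdh became 0.17 with the 75th percentile, 0.18 with cyclic loess, 0.12 with the authors' table, 0.13 without masking and 0.018 with the slide row (-0.17 to 0.29 with 1 array left out). Sdha became 0.11, 0.16, 0.10 and 0.12 under the first 4 of these (-0.13 to 0.049). Me1 became 0.083, 0.16, 0.13, 0.15 and 0.0042 under all 5 (-0.14 to 0.063). Pcx became -0.087 with the 75th percentile and -0.053 with spots well above background (-0.11 to 0.22), where Got1 became -0.012 (-0.066 to 0.15). Sdhc ran from -0.011 to 0.16 and Sdhd from -0.055 to 0.21 with 1 array left out. With the mean of all probes, Mpc2 became -0.16, Pdhx -0.88, Cs -0.073, Idh2 -0.36, Idh3g -0.57, Dlst -0.51, Sdhb -0.10, Got1 -0.57 and Glud1 -0.61. With the most 3′ probe Dlat became 0.00022 and Dlst -0.089. Pck2 kept its call throughout, Pdhb in 11 of 22 alternatives, Idh3b in 15 and Suclg2 in 13. By the t-test with unequal variance, which the study states for comparing silenced with control cells, and with a Benjamini-Hochberg adjustment added here, the p of Pdhb, Idh3b and Suclg2 was 0.0851, 0.0797 and 0.0864. With the replicate block their limma adjusted p was 0.0945, 0.0535 and 0.0743. In that t-test Cs (higher), Dld and Idh3a (lower) were called beside Pck2. This made 3.03% of members higher and 9.09% lower, against 2.75% and 7.51% of all genes.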
